A study of Mus musculus with 18 samples.

Results

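The genes described here encode the 3 main families of conjugating enzymes of mouse tissues, the glutathione S-transferases (Gst and the membrane-bound Mgst), the UDP-glucuronosyltransferases (Ugt) and the sulfotransferases (Sult). Members were the protein-coding genes of the RefSeq annotation of GRCm38 with symbols that begin with Gsta, Gstm, Gstp, Gstt, Gstk, Gsto, Gstz, Mgst, Ugt1, Ugt2 or Ugt3, or with Sult and a digit, which gave 67 of 21887 protein-coding genes. They were 22 Gst, 3 Mgst, 21 Ugt and 21 Sult genes. A BMAL1 peak was placed at a member when its centre lay inside the gene or within 10 kb of either end, and a peak at several members was counted once. The rule uses symbols and no measured value, but the family and the lists of other genes were picked with earlier results of these data known.

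Conjugation makes drugs, hormones, bile acids, bilirubin and reactive by-products of metabolism more soluble, so that bile and urine can carry them away. Glutathione S-transferases attach glutathione, UDP-glucuronosyltransferases attach glucuronic acid and sulfotransferases attach a sulfate group. Liver and kidney are major sites of these reactions. BMAL1, a core protein of the circadian clock, pairs with CLOCK and binds E-boxes, and many genes of drug metabolism are known for daily rhythms in rodent liver.

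The mice were wild type C57BL/6 animals aged 3 to 6 months, and ChIP-seq, the sequencing of DNA pulled down with a chicken antibody to BMAL1 from formaldehyde-fixed nuclei, was run on their livers, kidneys and hearts. They were kept in 12 h of light and 12 h of darkness with food and water freely available. All tissues were taken at ZT 6, 6 h after lights on, and came from the same animals (3 mice per tissue), and no group carried an allele, agent or other time point. The 18 libraries were 3 BMAL1 ChIP and 3 input libraries per tissue, and the 3 heart inputs carry kidney as their source although title and tissue both say heart. Every heart value rests on a list made with these inputs. The authors pooled the libraries of a tissue into 1 peak list, with 4813 peaks in liver, 4034 in kidney and 2519 in heart, so no value exists per animal, read depth is unknown and no difference between tissues was tested. Each peak carries a whole-number score from the authors, whose scale is not given in the sources used here, and ranks by score are used only within a list. These are whole tissues, and a peak list does not tell cell types apart. Of the genes chosen to mark the tissues, Alb and Cyp2e1 of liver had no peak within 10 kb in the 3 lists, Lrp2 of kidney had a kidney peak, Slc34a1 of kidney had a liver and a kidney peak, Myl2 of heart had a heart peak, and Tcap of heart had kidney and heart peaks. Binding near a gene is no measure of its expression, so the tissue labels were not checked by it.

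At least 1 peak lay at 19 of the 67 members (28.4%), against 30.7% of all protein-coding genes. In liver 15 members had a peak (22.4%, exact 95% interval 13.1 to 34.2%), against 18.1% of all protein-coding genes. In kidney 6 members had a peak (8.96%, 3.36 to 18.5%), against 18.0% of all protein-coding genes. In heart 4 members had a peak (5.97%, 1.65 to 14.6%), against 11.5% of all protein-coding genes. At 10 kb each of these intervals holds the share of all genes in that tissue. The kidney count depended on the distance: with 2 kb or 5 kb, 3 members had a kidney peak (4.48%, 0.933 to 12.5%), and the shares of all protein-coding genes, 13.8% and 15.5%, lay above that interval. The liver and heart intervals held the share of all genes at both distances. The members were about as long as other genes, with a median of 17.6 kb against 17.2 kb. Of the 15 liver members, 7 were Ugt1a genes that overlap and share a single peak. Without the Ugt1a genes, 8 of 58 members had a liver peak (13.8%, 6.15 to 25.4%), below and no longer above the share of all genes. The intervals cover counting error only and treat neighbouring genes as independent, which makes them too narrow.

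**Figure D1:**
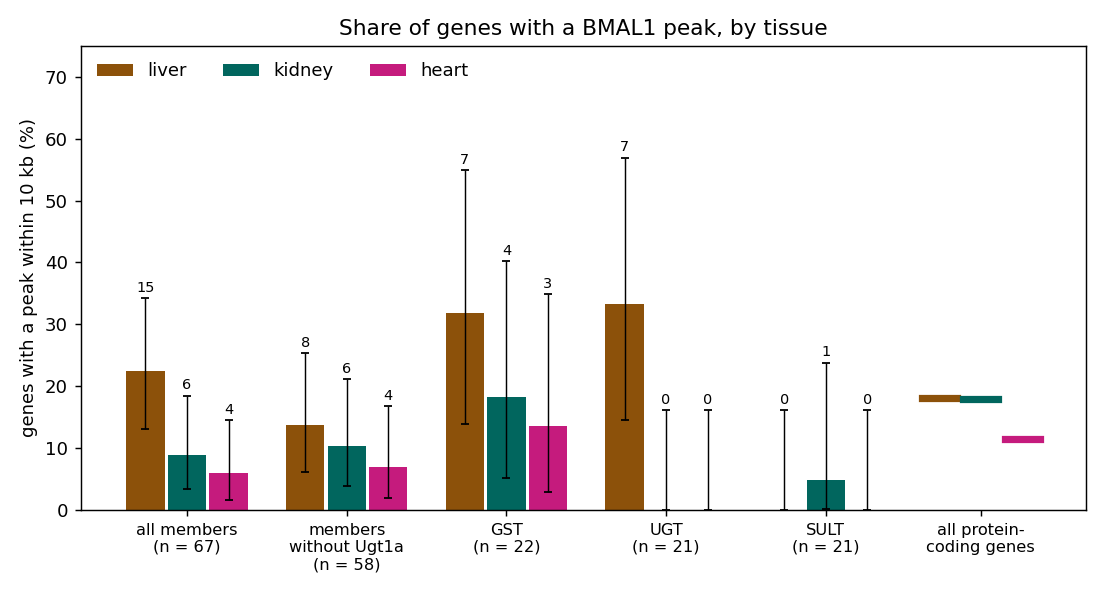
Share of genes with a BMAL1 peak inside the gene or within 10 kb (%, y axis) for all members, members without the Ugt1a genes, and the GST, UGT and SULT families, in liver, kidney and heart. Bars are shares, whiskers exact 95% intervals, numbers above them the genes with a peak, and the short lines at the right the shares of all protein-coding genes (18.1, 18.0 and 11.5%). The 15 liver members fall to 8 once the Ugt1a genes are left out.

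Gst genes had a peak in some tissue in 10 of 22 cases, 7 of them in liver, 4 for kidney and 3 for heart. In liver, kidney and heart these were 31.8, 18.2 and 13.6% of the Gst genes, against 18.1, 18.0 and 11.5% of all protein-coding genes. Of the 3 Mgst genes, Mgst3 had peaks within 10 kb in every tissue, while Mgst1 and Mgst2 had none. The liver peak lay inside Mgst3, and the kidney and heart peaks lay outside it, inside the neighbouring gene Aldh9a1. Among the Ugt genes, the 7 with a peak were all Ugt1a genes in liver, and none of the 10 Ugt2 or 2 Ugt3 genes had a peak in any tissue. Of the 21 Sult genes, Sult6b1 alone had a peak, in kidney, and the 6 Sult1 and 9 Sult2 genes had none. No test of these family differences was made, since members of a family lie side by side and share peaks. When members with overlapping 10 kb windows were joined, they formed 43 loci, and 8 loci held all the peaks. Liver peaks lay at 6 loci, kidney peaks at 5 and heart peaks at 4. No such share was computed for joined loci of all protein-coding genes, so these counts stand without a comparison. The Gstt locus on chromosome 10 held 8 of the 21 peaks, Mgst3 held 4 and the Gsto locus held 3.

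Peaks at members numbered 9 in liver (0.187% of the list), 8 in kidney (0.198%) and 4 in heart (0.159%). Overlap between tissues by at least 1 bp joined them into 17 regions. Peaks of all 3 tissues met in 1 region (5.88%), peaks of 2 tissues in 2 (11.8%), and 14 regions had a peak in 1 tissue (82.4%). Over all 9005 regions of the series the shares were 5.76, 14.7 and 79.5%, so the mix at these genes was close to that of the whole series. Liver alone held 7 of the regions (41.2%, against 35.5% of all regions), kidney alone 5 (29.4% against 25.8%) and heart alone 2 (11.8% against 18.2%). Liver scores had a median of 38 (range 17 to 113), kidney scores one of 45 (17 to 106) and heart scores one of 47.5 (16 to 77). The median rank, where 0% is the strongest peak of a list, stood at 51.5% for liver, 27.0% for kidney and 33.2% for heart.

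**Figure D2:**
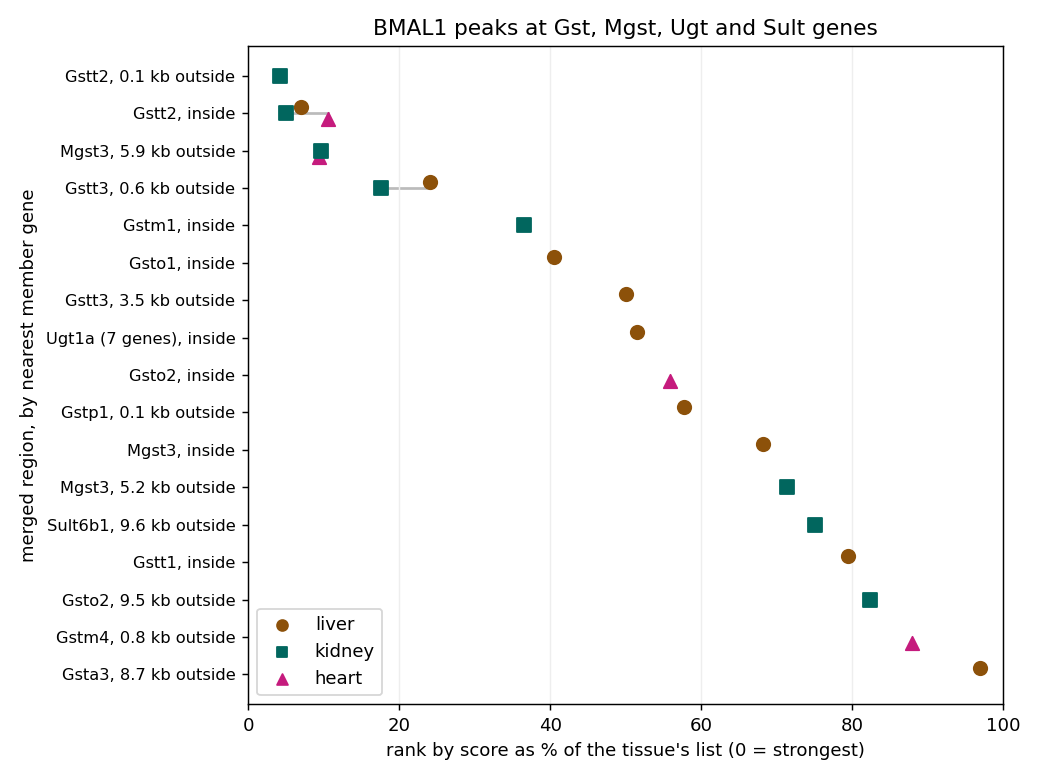
Rank by score of each of the 21 peaks, as a percentage of its tissue's list (x axis, 0 is the strongest), for the 17 regions named by their nearest member (y axis). Circles are liver, squares kidney and triangles heart, and a grey line joins the tissues of a region. The regions at Gstt2, 5.9 kb from Mgst3 and 0.6 kb from Gstt3 lie at the strong end, and the 13 other regions, each with a peak in 1 tissue, rank at 36.5% or weaker.

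The sequence before a start site can be read for the peaks that touch an annotated start, and the windows that bear on the results are shown here. RefSeq start-site windows of GRCm38.p6, which run from 250 bases before a start to 50 after it, matched 59 of the 67 members by symbol, with 71 windows among them. Gsta4, Gstt2, Sult2a1, Sult2a2, Sult2a7, Sult4a1, Ugt1a6b and Ugt3a2 had no entry. Of the 71 windows, 2 were touched by a peak, those of Gstp1 and Gsto1, both in liver. The 250 bases before each start are given 5′ to 3′ on the strand of the gene. Capitals mark matches, on either strand, to the E-box CACGTG, to its variants CACGTT and CATGTG, to the D-boxes TTATGTAA and TTATGCAA bound by the clock outputs DBP and E4BP4, to the core TGACNNNGC of the antioxidant response element, or to the form TGAGTCAGC of that element, which was added after the sequences had been seen.
Ddt, chr10:75773375-75773624, minus strand, shown because the strongest site at Gstt3 lies on it: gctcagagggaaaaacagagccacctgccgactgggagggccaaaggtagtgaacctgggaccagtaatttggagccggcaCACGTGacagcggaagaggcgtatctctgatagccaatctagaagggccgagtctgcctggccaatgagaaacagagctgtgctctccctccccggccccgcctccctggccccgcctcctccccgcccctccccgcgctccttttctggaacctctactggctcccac
Gstp1, chr19:4037913-4038162, minus strand, shown because a liver peak covers its start: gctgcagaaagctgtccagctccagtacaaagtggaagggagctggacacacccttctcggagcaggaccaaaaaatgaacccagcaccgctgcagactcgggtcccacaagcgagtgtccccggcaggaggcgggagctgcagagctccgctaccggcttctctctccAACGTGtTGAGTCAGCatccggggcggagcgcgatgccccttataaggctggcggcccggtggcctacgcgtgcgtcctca
Gstp2, chr19:4042222-4042471, minus strand, shown as the neighbouring copy with no peak on its start: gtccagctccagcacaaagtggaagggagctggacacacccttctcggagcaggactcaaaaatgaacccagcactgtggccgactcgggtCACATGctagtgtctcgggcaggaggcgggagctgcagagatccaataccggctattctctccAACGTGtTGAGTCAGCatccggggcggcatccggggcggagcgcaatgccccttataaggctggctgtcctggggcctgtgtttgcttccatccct
Gsto1, chr19:47854723-47854972, plus strand, shown because a liver peak covers its start: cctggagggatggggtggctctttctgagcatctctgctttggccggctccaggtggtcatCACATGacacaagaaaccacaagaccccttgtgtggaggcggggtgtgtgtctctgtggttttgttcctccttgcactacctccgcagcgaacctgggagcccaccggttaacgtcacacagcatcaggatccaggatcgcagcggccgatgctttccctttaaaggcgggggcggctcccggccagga
Gstm1, chr3:108017819-108018068, minus strand, shown because a kidney peak lies just inside the gene: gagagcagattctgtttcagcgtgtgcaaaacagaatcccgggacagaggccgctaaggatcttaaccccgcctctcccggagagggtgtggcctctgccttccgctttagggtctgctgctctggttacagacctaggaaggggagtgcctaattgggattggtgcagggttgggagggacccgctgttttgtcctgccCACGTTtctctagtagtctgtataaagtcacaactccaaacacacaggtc

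The theta class, Gstt, encodes glutathione S-transferases that act on small halogenated compounds, and its 4 genes lie in a row over 63.3 kb of chromosome 10. Inside Gstt2 (chr10:75831842-75837419) lay the region at these genes that was bound in every tissue. Its score was 113 in liver (chr10:75835438-75835679, rank 335 of 4813), 100 in kidney (chr10:75835474-75835661, rank 203 of 4034) and 72 in heart (chr10:75835475-75835672, rank 268 of 2519). It lay near the strong end of every list, at 6.96% of the liver, 5.03% of the kidney and 10.6% of the heart list. A second kidney peak stood 1.94 kb away, 81 bp beyond the end of Gstt2 (chr10:75837407-75837594), with a score of 106 and rank 170. This was the highest rank of any peak at the members, at 4.21% of the kidney list, and no liver or heart peak overlapped it. The gene table used here gives no strand and Gstt2 has no start-site window, so whether that end is its start was not settled.

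At the other side of the Gstt row, liver and kidney shared a region 0.6 kb beyond Gstt3. Its score was 65 in liver (chr10:75773389-75773630, rank 1157) and 55 in kidney (chr10:75773458-75773645, rank 709). Heart had no peak there. The start of Ddt, which encodes D-dopachrome tautomerase, lay 135 bp from the centre of the liver peak and 177 bp from that of the kidney peak, against 607 bp and 565 bp to the near end of Gstt3. The site is thus nearer to Ddt than to Gstt3. The window of Ddt printed above holds 1 E-box CACGTG, 169 bases before the start (chr10:75773538-75773543), 31 bp from the centre of the liver peak and 11 bp from that of the kidney peak. Weaker liver peaks stood 3.45 kb beyond Gstt3 (chr10:75770542-75770783, score 39, rank 2408), again nearer to Ddt, and inside Gstt1 (chr10:75789834-75790075, score 24, rank 3823). Gstt4 had no peak within 10 kb in any tissue.

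The microsomal class, Mgst, consists of small membrane proteins, and Mgst3 is known for glutathione transferase and peroxidase activity toward lipid products. Kidney and heart shared a region 5.9 kb outside Mgst3 on chromosome 1. The kidney peak scored 75 (chr1:167365959-167366146, rank 392) and the heart peak 77 (chr1:167365944-167366141, rank 237), which was the highest heart score at the members. Their ranks were 9.72% (kidney) and 9.41% (heart) of the way down the lists, and no liver peak overlapped them. Kidney and heart without liver made up 1 of the 17 regions at members (5.88%) and 228 of all 9005 regions (2.53%). The region lies inside Aldh9a1, which encodes an aldehyde dehydrogenase of carnitine synthesis, so Mgst3 is not the nearest gene. A weak kidney peak lay 0.735 kb further on, also inside Aldh9a1 (chr1:167366686-167366873, score 20, rank 2878). Liver had a different site, inside Mgst3 and 2.48 kb from its start (chr1:167391238-167391479, score 29, rank 3282), which is 25.3 kb from the kidney and heart region.

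The omega class, Gsto, reduces dehydroascorbate and methylated arsenicals. Gsto1 and Gsto2 lie side by side on chromosome 19, and each tissue had a peak there at a different site. The liver peak covered the start of Gsto1, 28 bp from its centre (chr19:47854881-47855122, score 46, rank 1953). The peak also covers the start of the long non-coding RNA gene Gm30021, which runs the other way. The heart peak lay inside Gsto2 (chr19:47885263-47885460, score 23, rank 1406), 30.4 kb from the liver peak. The kidney peak lay 9.47 kb beyond Gsto2, inside the neighbouring gene Itprip (chr19:47895685-47895872, score 17, rank 3323), 10.4 kb from the heart peak. The kidney and heart peaks ranked at 82.4 and 55.8% of their lists, so these sites stood in the weaker part of each. The window of Gsto1 holds 1 match, to the variant CATGTG, 189 bases before the start and outside the peak.

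**Figure D3:**
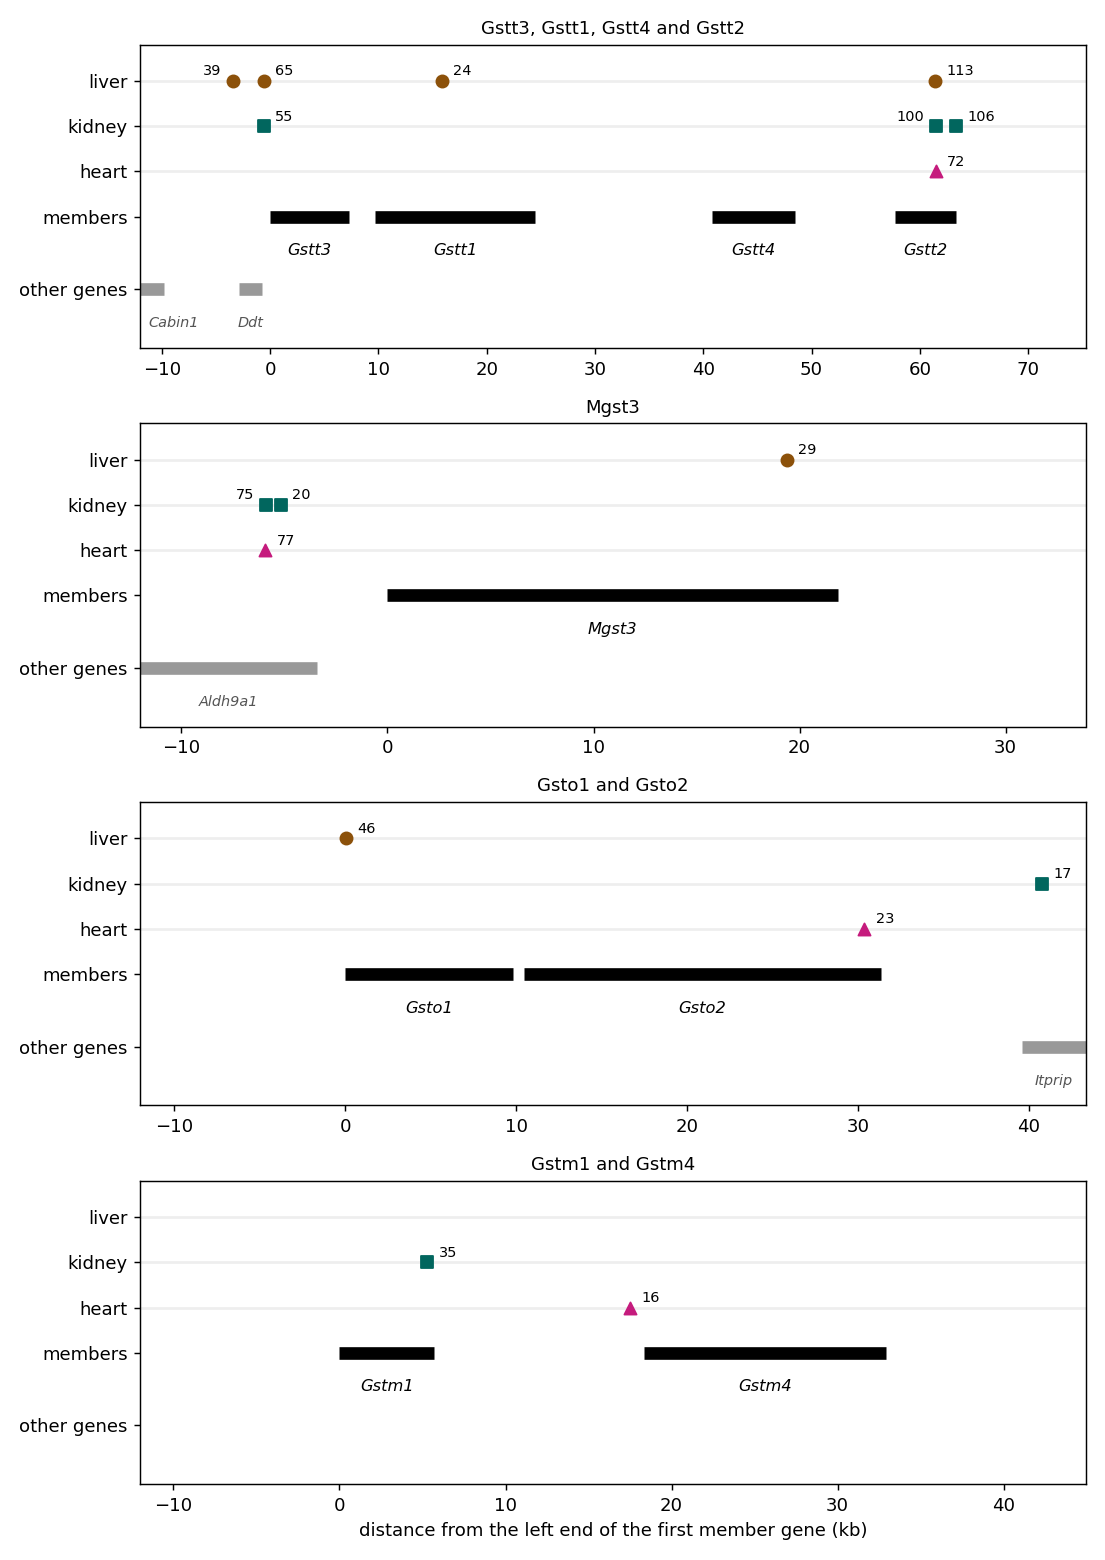
Maps of the Gstt, Mgst3, Gsto and Gstm1 to Gstm4 loci, with distance in kb from the left end of the first member on the x axis. Black bars are members, grey bars other protein-coding genes, and symbols are peak centres in liver (circles), kidney (squares) and heart (triangles) with the score beside each. The region inside Gstt2 has a peak in all 3 tissues (113, 100 and 72), while the Gsto genes have a peak at a different site in each tissue (46, 17 and 23).

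The pi class, Gstp, encodes abundant detoxifying transferases, and Gstp1, Gstp2 and Gstp3 lie within 24.2 kb of chromosome 19. A liver peak covered the start of Gstp1 (chr19:4037855-4038096, score 34, rank 2780), with its centre 63 bp from the start. It was also within 10 kb of Gstp2, and kidney and heart had no peak at any of the 3 genes. Inside the peak the window of Gstp1 holds AACGTG, the other strand of CACGTT, 81 bases before the start and 15 bp from the peak centre. Next to it stands TGAGTCAGC, 74 bases before the start and 6.5 bp from the centre. The form TGAGTCAGC was found in 136 of all 32851 start-site windows (0.414%). Among windows touched by a peak it was found in 0.382% in liver, 0.294% in kidney and 0.144% in heart. This form was added after the sequences had been seen, so its rarity is no support for the match at Gstp1. Gstp2 carries the same 2 matches 96 and 89 bases before its start, and no peak touched its window. The windows of Gstp1 and Gstp2 were identical at 77.1% of aligned positions. How reads from such similar copies were treated is not given in the sources used here.

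The mu class, Gstm, is a row of 7 genes on chromosome 3, and liver had no peak at any of them. In kidney a peak lay inside Gstm1, a mu class enzyme abundant in mouse liver, 284 bp from the nearer of its annotated starts (chr3:108017440-108017627, score 35, rank 1473). In heart a peak lay 0.8 kb outside Gstm4 (chr3:108029672-108029869, score 16, rank 2215), at the lowest score of the heart list. These sites were 12.2 kb apart. The window of Gstm1 has CACGTT 50 bases before the start, outside the kidney peak. The alpha class, Gsta, contains the major transferases of lipid peroxidation products in liver, and of its 4 genes Gsta3 had the only peak, a liver peak 8.71 kb outside the gene (chr1:21231737-21231978, score 17, rank 4664 of 4813). That peak lay nearer to Tmem14a, had the lowest score of the liver list and was near the end of it. Gstk1 and Gstz1, the kappa and zeta members, had no peak.

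The Ugt1a genes use separate first exons joined to shared last exons, so their annotated spans overlap over 165 kb of chromosome 1. A single liver peak lay there (chr1:88179737-88179978, score 38, rank 2481, 51.5% of the list). It fell inside the spans of Ugt1a10, Ugt1a9, Ugt1a8, Ugt1a7c, Ugt1a6b, Ugt1a6a and Ugt1a5, 13.8 kb from the start of Ugt1a5, the nearest annotated start. Ugt1a2 and Ugt1a1, the enzyme that conjugates bilirubin, had no peak within 10 kb. The Ugt2 genes, whose products conjugate steroids and many drugs, lie on chromosome 5 and had no peak, as did Ugt3a1 and Ugt3a2. Windows of this family were the most alike, with up to 87.3% identity between Ugt2b37 and Ugt2b38. Whether reads in such copies were kept is not given in the sources used here.

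Sulfotransferases transfer sulfate to phenols (Sult1) or to steroids and bile acids (Sult2). The kidney peak assigned to Sult6b1 lay 9.60 kb outside it (chr17:78916496-78916683, score 19, rank 3031), with its centre 90 bp from the start of Cebpzos. Just beyond the 10 kb limit the nearest peaks were heart peaks 13.1 kb from Mgst2 (score 16) and 14.3 kb from Sult6b1 (score 16), and just inside it were the kidney peaks at Sult6b1 and Gsto2 (scores 19 and 17). Between 10 and 50 kb of a member lay 22 more peaks. Of these, 9 belonged to 3 regions at Dbp, a clock output gene, 22.2 to 25.0 kb from Sult2b1, with scores of 321, 217 and 315 in liver, 285, 205 and 238 in kidney and 308, 208 and 256 in heart. All of them ranked between 3 and 35 in their lists, and Dbp was the nearest protein-coding gene of every one.

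Of the 21 peaks, 12 had a member as the nearest protein-coding gene, which held for 6 of 9 liver peaks, 3 of 8 kidney peaks and 3 of 4 heart peaks. The centre lay inside a member in 5 liver, 2 kidney and 2 heart peaks. An annotated start of any gene lay within 1 kb of 3 liver, 3 kidney and 0 heart peaks. Over whole lists the shares were 27.5% (liver), 39.3% (kidney) and 35.8% (heart), with chromosome 18 left out because the start-site table has no entry on it. Of these 6 peaks at a start, the starts were those of Ddt (liver and kidney), Gstp1, Gsto1, Gstm1 and Cebpzos. The start-site table covers 17492 of 21887 protein-coding genes and has no entry for Gstt2, so a peak near a missing start was not counted. Exons and introns were not told apart here, since the gene table gives only gene ends.

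No member window held the E-box CACGTG (0 of 71), against 7.15% of all 32851 windows. In windows touched by a peak it was found in 38.5% in liver (1048 windows), 35.8% in kidney (1360) and 34.4% in heart (695). Of the 71 member windows, 2 were touched by a peak, so the member share and these shares come from unlike sets. The E-box inside the liver and kidney region near Gstt3 lies in the window of Ddt, which is not a member. The variant CACGTT was found in 4 member windows, those of Gstm1, Gstp1, Gstp2 and Ugt2b35 (5.63%, against 4.68% of all windows). The variant CATGTG was found in 12 (16.9% against 14.2%). Of the windows touched by a peak, CACGTT was found in 9.06% in liver, 9.49% in kidney and 8.49% in heart. For CATGTG these shares were 11.2, 9.85 and 8.35%, below its share of all windows. The antioxidant response element core, bound by NRF2, was found in 4 member windows, those of Gsta3, Gstm5, Gstm7 and Mgst1 (5.63% against 12.4%). The D-box forms were found in 1 member window each, TTATGTAA in that of Ugt2b1 and TTATGCAA in that of Gstt1, against 0.938 and 0.743% of all windows. A match is a run of letters in the sequence and not a binding site, and the peaks inside Gstt2 and in Aldh9a1 touch no window, so their sequence was not examined.

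**Figure D4:**
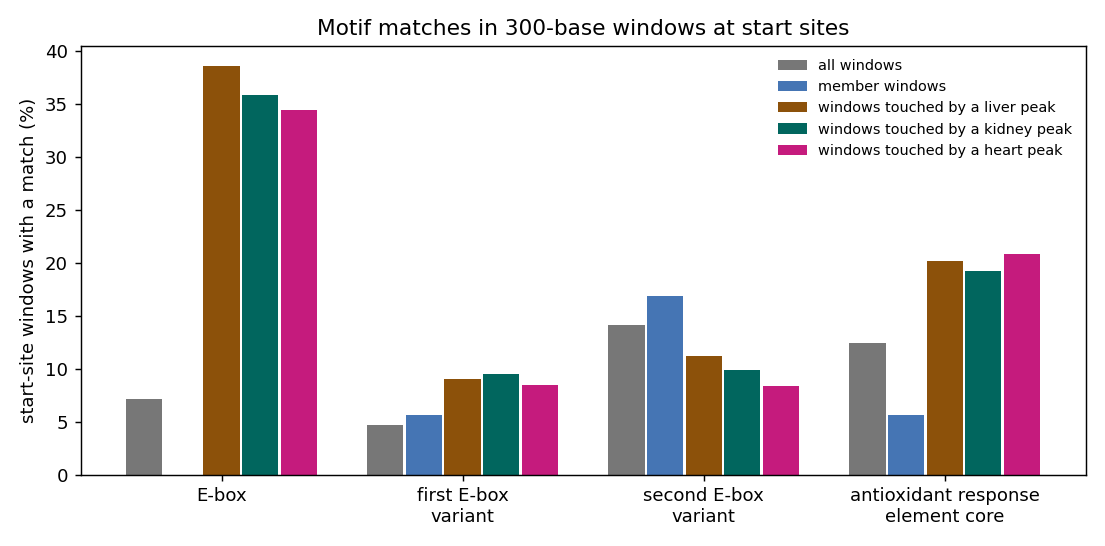
Share of start-site windows with a motif match (%, y axis) for the E-box CACGTG, the first variant CACGTT, the second variant CATGTG and the antioxidant response element core TGACNNNGC. Grey bars are all 32851 windows, blue bars the 71 member windows, and the other bars the windows touched by a peak in each tissue. The E-box is in 7.15% of all windows, in 34.4 to 38.5% of windows touched by a peak and in none of the member windows. Of the member windows, 2 were touched by a peak, so the blue bars and those of touched windows show unlike sets.

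Other genes of conjugation carried peaks as well. Of 11 genes that supply the cofactors, liver peaks lay at 5, kidney peaks at 7 and heart peaks at 3. Papss1, which makes the sulfate donor PAPS, had a peak in kidney (score 60, rank 604) and another in liver (score 32, rank 2961) at a different site. Gclc and Gclm, the subunits of the enzyme that starts glutathione synthesis, had a region shared by kidney and heart each and no liver peak. The scores were 47 in kidney and 68 in heart for Gclc, and 53 in kidney and 38 in heart for Gclm. Gsr, the glutathione reductase, was the gene of this list with a peak in every tissue (38 in liver, 34 in kidney and 32 in heart). Papss2 had 3 liver and 2 kidney peaks, and Gss, Ugdh, Ggt1 and Ugp2 had 1 peak each in 1 tissue.

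Among 9 other conjugating enzymes, liver peaks lay at 2, a kidney peak at 1 and heart peaks at 0. Inmt, an N-methyltransferase, had a region with scores of 115 in liver and 99 in kidney, 1.09 kb outside the gene. As3mt, which methylates arsenic, had a liver peak with a score of 41. Of the enzymes that remove conjugates, 4 of 5 matched the annotation used, and Arsa had 2 liver peaks (scores 66 and 47) and Arsb a heart peak (score 16). Of 12 regulators and companion genes, liver peaks lay at 6, kidney peaks at 7 and heart peaks at 4. The best ranks were those of Por, the P450 reductase (score 134 in kidney, 109 in liver), the lipid receptor gene Ppara (152 in liver, 86 in kidney) and Hnf4a (140 in liver, 97 in kidney). Nfe2l2, which encodes NRF2, had a region in all 3 tissues (126 in liver, 86 in kidney and 75 in heart), as did Ephx1 (40, 40 and 44). Nr1i2 had a peak in liver, Rxra and Nqo1 in kidney, and Ahr and Arnt in heart, while Nr1i3 and Keap1 had none. All counts in these lists use the 10 kb rule behind the 18.1, 18.0 and 11.5% of all protein-coding genes. The lists are short and were picked with earlier results of these data known, and no list was tested.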

How the data were processed

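BMAL1 ChIP and input libraries of liver, kidney and heart were grouped from their titles. Each tissue has 1 peak list, which the authors made from all its ChIP and input libraries together, per the series' design text. The submitters' processing notes name Bowtie2, SAMtools, HOMER and the build mm10, with no role, order or version. The score that the authors deposited per peak has no stated meaning. Members and gene lists were chosen with earlier results of these data known. From the lists of other genes, 2 genes are not reported here. Gene ends came from RefSeq for GRCm38.p6, the same build (49943 genes on chromosomes), and start sites and sequences from a RefSeq table that covers 17492 protein-coding genes. Peak centres were assigned to genes within 10 kb, and peaks of different tissues were joined when they overlapped by at least 1 bp. Shares have exact (Clopper-Pearson) 95% intervals. Windows were aligned globally. Every member with a peak is named; regions with peaks in several tissues, the 12 best by rank and the 3 best genes per other list get values. The assignment was tested on simulated data. Python 3.11.15, pandas 2.3.3, NumPy 2.4.6, SciPy 1.17.1 and Biopython 1.88 were used. Alternatives were other distances, score thresholds, overlap rules and gene sets.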

Additional observations from a re-analysis of the deposited data

How the results depend on the processing

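Without values per animal, no library could be left out. No paired analysis was possible because the lists pool the replicates of a tissue. With peaks inside genes only, kidney and heart peaks lay at 2 members each, 5 liver, 2 kidney and 2 heart peaks remained at members, and 0 regions had peaks in 2 tissues and 6 in 1 tissue. Within 2 kb the kidney counts were 3 members (4.48%, against 13.8% of all protein-coding genes) and 4 peaks, with 1 region in 2 tissues and 9 in 1 tissue. Within 5 kb they were 3 members (4.48%, against 15.5%) and 4 peaks, with 1 region in 2 tissues. Within 50 kb, 25 members had a liver, 15 a kidney and 12 a heart peak, from 17, 15 and 11 peaks, and the regions numbered 4 for all 3 tissues, 4 for pairs (2 tissues) and 23 for 1 tissue. With the weaker 50% of the peaks of each tissue removed, 3 members had a liver and 2 a heart peak, from 3 liver and 2 heart peaks, with 5 kidney peaks and 3 regions in 1 tissue. There the liver share of members was 4.48%, against 11.0% of all protein-coding genes. The exact 95% interval of the members' share left out the share of all genes for kidney at 2 and 5 kb, and held it in the other tissues, distances and score thresholds tried. These intervals treat neighbouring genes as independent, which makes them too narrow, and several settings were tried. A lower kidney share at the members was therefore not tested. With as many top peaks from each list as heart has, 5 liver and 5 kidney peaks and 7 regions in 1 tissue were left. Of the alternatives added after the data were seen, leaving out the Ugt1a genes gave 8 members with a liver peak, and counting a peak only for its nearest protein-coding gene gave 2 members with a kidney peak from 3 peaks. The count of regions in all 3 tissues was 1 under each alternative tried for it except the 50 kb window. Requiring 50% overlap, sharing by centres within 1000 bp, counting any base of a peak, and shorter or longer distances to a start moved no value by more than 1.5 times.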
